A study of Capra hircus with 9 samples.

Results

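Keratins are the intermediate filament proteins of epithelial cells, and 8 of them were followed in the goat submandibular gland: KRT5, KRT14, KRT15 and KRT17, which mark basal and myoepithelial cells, and KRT7, KRT8, KRT18 and KRT19, which mark the luminal cells of ducts and acini. Members were found by their product names, keratin of type I or II, and all transcripts of a gene were summed. They were 8 of 21664 genes and 15 of 52739 transcripts in the table. The study compared glands of healthy female Lubo goats aged 1 month (group A), 12 months (group B) and 24 months (group C), with 3 goats per age and 1 library per goat. All goats were kept under the same conditions, and all were fasted and put under general anaesthesia with xylazine before slaughter. No group was given a treatment of its own or genetically altered. Whole gland was frozen after slaughter, and total RNA was sequenced as strand-marked libraries, from which ribosomal reads were then removed. Levels are given as CPM, counts per 1e+06 counts of a library, scaled between libraries with TMM, a method that corrects for a few very abundant genes.

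A type I keratin and a type II keratin pair to build a filament. KRT5 (type II) pairs with KRT14 (type I) in basal cells, and KRT8 (type II) pairs with KRT18 (type I) in simple epithelia, while KRT7 and KRT19 are the pair added in ducts. KRT15 is a type I keratin of basal layers and their progenitor cells, and KRT17 is a type I keratin of basal, myoepithelial and stressed epithelial cells. In salivary glands the acini and ducts carry luminal keratins, and the cells around them carry basal ones. The epithelial mesh of the thymus uses KRT5, KRT14, KRT8 and KRT18 as well.

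After removal of a scaling factor carried by each library, the total counts were 2.01e+07 to 2.63e+07, and 3 counts were worth 0.0835 to 0.175 CPM on the TMM scale. The library labelled 1-month-old replicate 2 stood apart. Its level of AQP5, the water channel of acinar cells, was 0.494 CPM, against 217 and 128 CPM in replicates 1 and 3 and at least 467 CPM in every older library. The acinar list (10 genes) summed to 118 CPM in it, against 37562 and 24608 CPM in the other 1-month-old libraries and 112391 to 208026 CPM in groups B and C. The thymocyte list (14 genes) summed to 15197 CPM in it, to 4003 and 2027 CPM in replicates 1 and 3, and to between 13.1 and 33.8 CPM in the older libraries. Of that list RAG2, DNTT and ARPP21 in group B and PTCRA and ARPP21 in group C were at or under 3 counts in each library. The thymic epithelium list (12 genes) summed to 510 to 1775 CPM in group A, highest in replicate 2, and to 263 to 470 CPM in groups B and C, where its defining genes FOXN1, PRSS16, PSMB11, AIRE and TBATA were at or under 3 counts in each library. So every 1-month-old library carried thymus markers, and replicate 2 went against its label as gland by its acinar markers. The part of this difference in the keratin levels was not tested, and results that rest on replicate 2 are given with and without it. In these bulk samples fewer cells of a type and less RNA per cell cannot be told apart.

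Of the basal keratins, KRT5 was measured at 51.4, 131 and 44.7 CPM in group A (replicates 1, 2 and 3), at 46.5, 38.9 and 47.3 CPM in group B and at 60.1, 65.4 and 75.4 CPM in group C. KRT14, its type I partner, was at 10.6, 52.9 and 10.8 CPM in group A, at 11.3, 5.94 and 7.73 CPM in group B and at 7.97, 12.2 and 13.01 CPM in group C. KRT17 was at 59.3, 195 and 42.6 CPM in group A, at 47.4, 41.9 and 46.1 CPM in group B and at 48.1, 79.2 and 79.1 CPM in group C. For these 3 genes the highest library was 1-month-old replicate 2, at 2.72, 4.95 and 3.82 times the mean of the other 1-month-old libraries for KRT5, KRT14 and KRT17, and group A overlapped both older groups. KRT15 followed another course, with 2.74, 5.74 and 4.06 CPM in group A, 24.5, 6.43 and 7.69 CPM in group B and 15.8, 15.8 and 16.1 CPM in group C. Every older library was above every 1-month-old library for KRT15, and 12-month-old replicate 1 stood above the other libraries of its group.

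The luminal keratins were lower in the 1-month-old libraries. KRT7 was at 71.8, 9.38 and 53.6 CPM in group A, at 196, 141 and 145 CPM in group B and at 127, 265 and 278 CPM in group C. KRT19, its type I partner, was at 88.6, 123 and 87.5 CPM in group A, at 296, 139 and 130 CPM in group B and at 133, 239 and 320 CPM in group C. For both genes the older groups lay wholly above group A and overlapped each other. In 1-month-old replicate 2 KRT7 was at its lowest, 6.69-fold under the mean of replicates 1 and 3, while KRT19 was 1.40-fold over it. KRT8, the type II keratin of simple epithelia, was at 236, 307 and 158 CPM in group A, at 489, 416 and 479 CPM in group B and at 424, 766 and 897 CPM in group C. KRT18, its partner, was at 91.2, 68.8 and 52.0 CPM in group A, at 230, 193 and 267 CPM in group B and at 211, 401 and 428 CPM in group C. Here too groups B and C overlapped each other and neither overlapped group A. In group C the libraries 2 and 3 were the high ones and replicate 1 the low one for each luminal keratin.

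**Figure D1:**
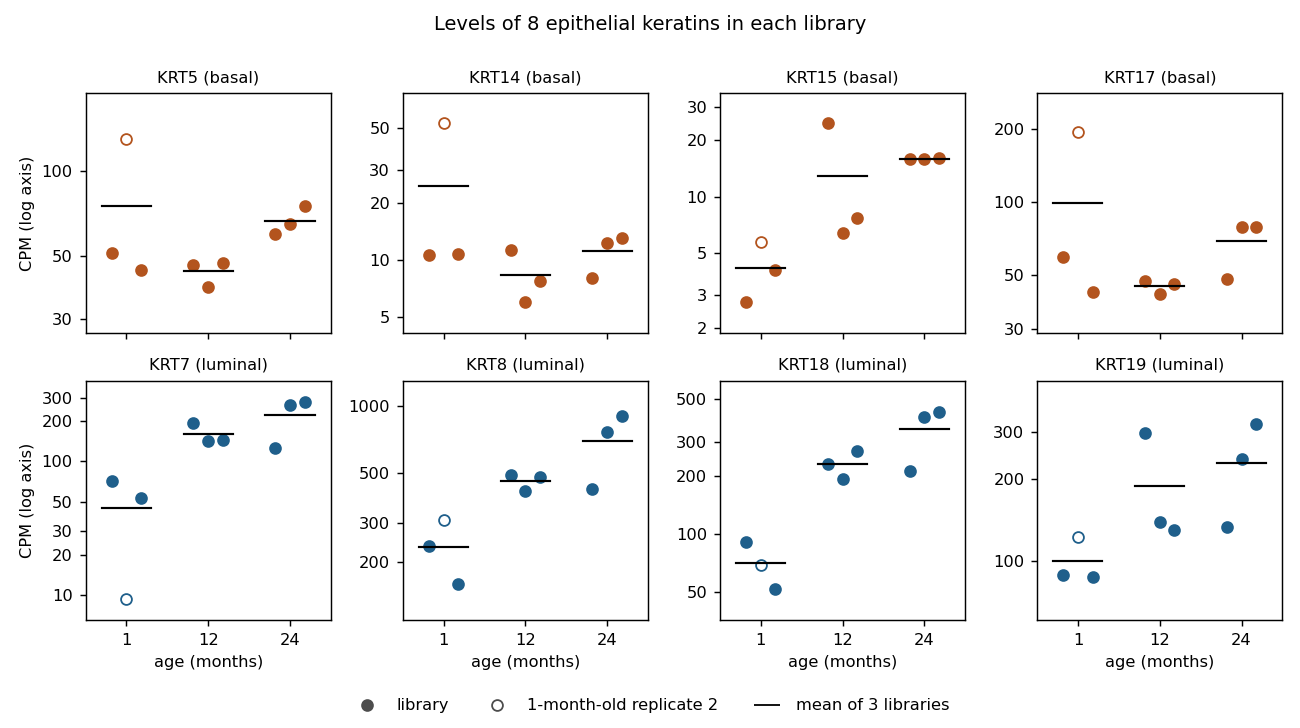
CPM on a log axis (1 panel per keratin, each with its own range) against age in months. Points are the 3 libraries of an age, open for 1-month-old replicate 2, and bars are means: the luminal keratins and KRT15 lie lower in all 1-month-old libraries than in the older ones, and the open point is the highest for KRT5, KRT14 and KRT17 and the lowest for KRT7.

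Between 1 and 12 months the question was which keratins differ between the gland of a kid and that of a grown goat. All 8 genes were tested with edgeR's quasi-likelihood test, with Benjamini-Hochberg adjustment over all genes tested, and a call required an adjusted p below 0.05 together with a log2 fold change beyond 2 in either direction. None of the 8 was called, against 11.7% of all genes tested. At an unadjusted p under 0.05 there were 5 (KRT15, KRT7, KRT8, KRT18 and KRT19), against 37.8% of all genes, all 5 higher at 12 months. The same 5 did not overlap between the groups, against 26.6% of all genes that were higher without overlap. KRT18 was the only member with an adjusted p under 0.05, which 18.3% of all genes reached: its mean was 230 ± 36.9 CPM at 12 months and 70.7 ± 19.7 CPM at 1 month (SD, n = 3), a log2 fold change of 1.76 with a standard error of 0.32 and an adjusted p of 0.0162 in edgeR. Without any 1 of the 12-month-old libraries no member passed that threshold, which was then passed by 0%, 0.489% and 0.814% of all genes (without replicates 1, 2 and 3). KRT7 had a log2 fold change of 1.92 (edgeR adjusted p = 0.0846), KRT15 of 1.66 (0.101), KRT8 of 1.03 (0.0841) and KRT19 of 0.97 (0.132). The estimates for KRT5, KRT14 and KRT17 were -0.74, -1.55 and -1.11, with edgeR adjusted p-values from 0.161 to 0.278.

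The basal estimates depended on the library labelled 1-month-old replicate 2. Without it, KRT5 differed by -0.11 on the log2 scale (95% interval -0.47 to 0.24), KRT17 by -0.17 (-0.59 to 0.25) and KRT14 by -0.36 (-1.10 to 0.39). The luminal estimates without it were 1.36 for KRT7, 1.23 for KRT8, 1.69 for KRT18 and 1.10 for KRT19. KRT7, KRT8 and KRT18 then had adjusted p-values of 0.0051, 0.0061 and 0.0058 in edgeR, under a threshold that 43.3% of all genes passed without this library, and none exceeded the fold limit, so that again no member was called, against 12.5% of all genes. KRT19 and KRT15 had adjusted p-values of 0.0619 and 0.0624 in the same edgeR fit. The median log2 fold change of the luminal keratins was 1.39 with all libraries and 1.30 without this one, beside -0.02 and -0.01 for all genes tested. For the basal keratins it was -0.92 and -0.14.

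Between 1 and 24 months 3 of the 8 keratins were called, all of them higher at 24 months, where 13.4% of all genes were called and 4.25% were called higher. These were KRT18 (log2 fold change 2.42, standard error 0.48, edgeR adjusted p = 0.0148), KRT7 (2.46, 0.72, 0.0493) and KRT15 (2.03, 0.44, 0.0195). The fitted fold of KRT18 was 5.34, and its mean rose from 70.7 ± 19.7 to 347 ± 118 CPM (SD, n = 3). That of KRT15 was 4.07, with means of 4.18 ± 1.51 and 15.9 ± 0.18 CPM, and that of KRT7 was 5.51, with means of 44.9 ± 32.1 and 223 ± 83.8 CPM. The ratios of these means were 4.90, 3.80 and 4.97 for KRT18, KRT15 and KRT7. KRT8 and KRT19 missed the threshold, at 1.69 (edgeR adjusted p = 0.0541) and 1.33 (0.0807). The same 5 genes as at 12 months did not overlap between the groups, against 20.2% of all genes that were higher without overlap. KRT5 differed by -0.08 (95% interval -1.21 to 1.05), KRT17 by -0.43 (-1.85 to 0.98) and KRT14 by -1.07 (-2.66 to 0.52), with all groups overlapping.

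These calls depended on single libraries. Without 1-month-old replicate 2, KRT15 (2.33, edgeR adjusted p = 0.00436) and KRT18 (2.38, 0.00703) were called, and KRT7 fell under the fold limit at 1.94 (0.0123), against 14.1% of all genes called. KRT8 (1.93, 0.0128) and KRT19 (1.50, 0.0276) then also had an adjusted p under 0.05, which 27.9% of all genes had in that edgeR fit. The basal KRT5, KRT14 and KRT17 turned from negative to positive estimates of 0.58, 0.16 and 0.54, with intervals that include 0. Without 1-month-old replicate 1, 1 member was called, against 12.1% of all genes, and without 1-month-old replicate 3 none was, against 10.1%. Without 24-month-old replicate 2 or 24-month-old replicate 3 none was called either, where the shares of all genes called were 3.62% and 2.02%. With DESeq2 size factors or upper-quartile normalization 1 member was called (13.2% and 12.7% of all genes) and with total counts none (15.8%), and on unscaled counts KRT7 missed the threshold (2.43, edgeR adjusted p = 0.0534). Both comparisons use the same group A libraries.

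**Figure D2:**
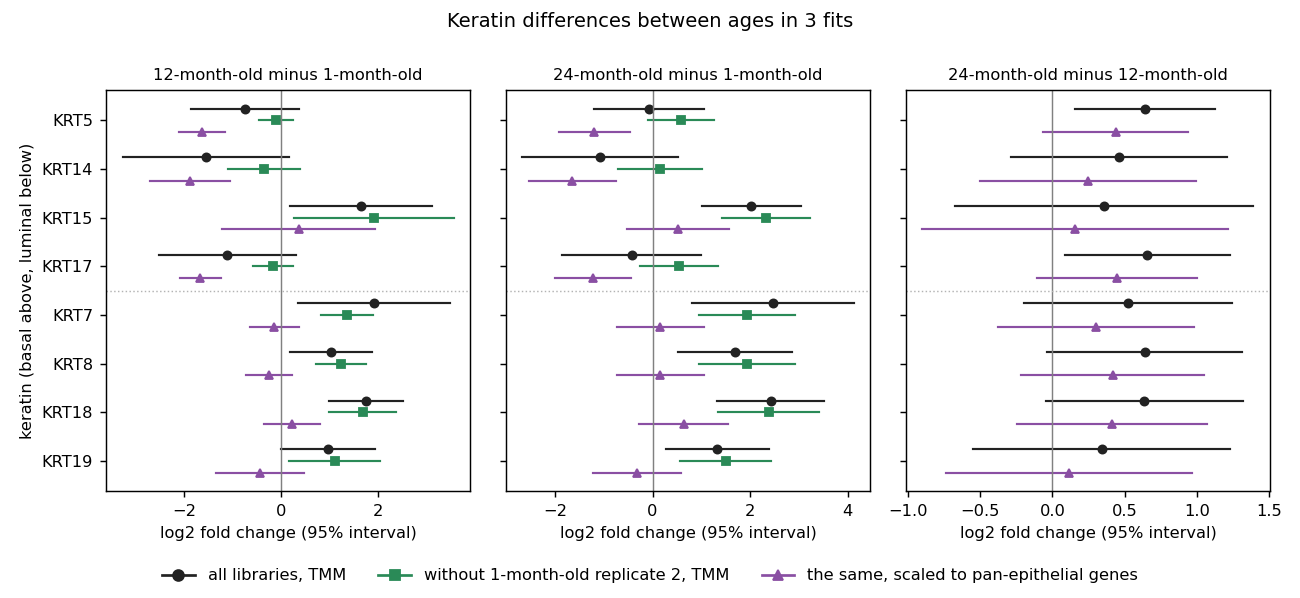
Log2 fold changes with 95% intervals, older minus younger, for the 8 keratins in 3 pairs of ages. Black circles use all 6 libraries of the pair, green squares leave out 1-month-old replicate 2, and purple triangles also scale each library to the summed counts of 12 pan-epithelial genes (in the right panel, without group A, they use all 6 libraries): in the 2 panels against 1 month the luminal keratins lie above 0 in the circles and squares and near 0 in the triangles, where KRT5, KRT14 and KRT17 lie below 0, and in the right panel all 8 keratins lie above 0.

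Between 12 and 24 months none of the 8 keratins and none of the 14288 genes tested (0%) was called by edgeR's quasi-likelihood test. Among all genes 1561 (10.9%) had an unadjusted p under 0.05, edgeR's exact test called 16 and DESeq2's Wald test 13. The 2 members under that unadjusted threshold were KRT5, higher at 24 months by 0.64 on the log2 scale (95% interval 0.16 to 1.12), and KRT17, by 0.66 (0.08 to 1.23). Their groups did not overlap, against 7.94% of all genes that were higher without overlap, and their adjusted p was 0.429 in edgeR. The other 6 estimates were all positive, from 0.34 for KRT19 to 0.64 for KRT8, with intervals that include 0 and groups that overlap. Without 24-month-old replicate 1, the low library for the luminal keratins, 5 members had an adjusted p under 0.05 in edgeR, as did 31.6% of all genes, and none exceeded the fold limit. In a two-sided exact permutation test of mean CPM the smallest p possible for 3 against 3 libraries is 0.1, reached by each member whose groups did not overlap.

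The basal keratins took 20.3% and 22.5% of the summed CPM of the 8 genes in 1-month-old replicates 1 and 3 and 43.0% in replicate 2. In group B the share was 9.48% to 9.67%, and in group C it was 8.72% to 12.9%, highest in replicate 1. Every 1-month-old library lay above every older one, and groups B and C overlapped. On the log2 scale the mean of the basal keratins minus that of the luminal ones was -2.51, -0.39 and -2.10 at 1 month, -3.29 to -3.54 at 12 months and -2.93 to -3.63 at 24 months. The group means differed by -1.76 between 12 and 1 months and by -1.69 between 24 and 1 months, and by -1.12 and -1.05 without 1-month-old replicate 2. The luminal mean was 6.18 to 6.77 in group A and 7.63 to 8.75 in the older libraries, without overlap. The basal mean was 4.27, 5.79 and 4.22 in group A and 4.11 to 5.12 in the older libraries, which overlapped with group A. Transcript lengths were not used here, so these shares describe a change across ages and not which keratin is more abundant.

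**Figure D3:**
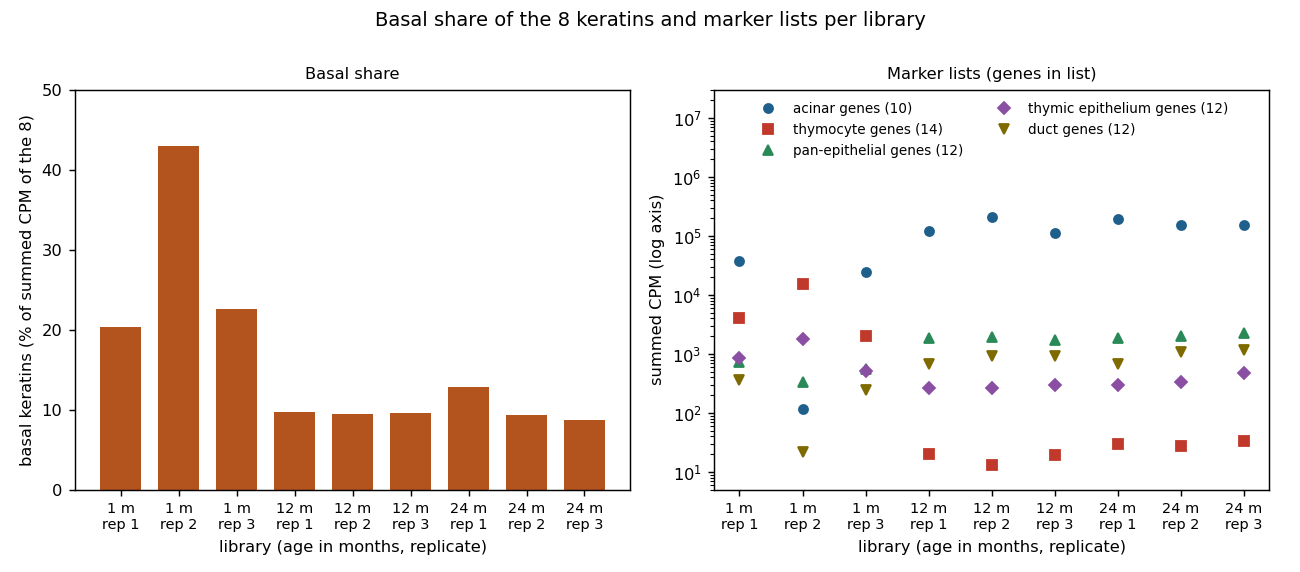
Left, share of the 4 basal keratins in the summed CPM of the 8 (percent) per library; right, summed CPM of 5 marker lists per library on a log axis. The share is highest, 43.0%, in 1-month-old replicate 2, where the acinar list is lowest and the thymocyte list highest, and it is 8.72% to 12.9% in the older libraries.

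The ratio of each type II keratin to its type I partner was also followed. For KRT8 to KRT18 it was 2.58, 4.47 and 3.04 at 1 month, 1.79 to 2.16 at 12 months and 1.91 to 2.099 at 24 months, with all 1-month-old libraries above the others. For KRT5 to KRT14 it was 4.85, 2.47 and 4.14 at 1 month, 4.11 to 6.56 at 12 months and 5.35 to 7.55 at 24 months. For KRT7 to KRT19 it was 0.81, 0.076 and 0.61 at 1 month, 0.66 to 1.11 at 12 months and 0.87 to 1.11 at 24 months. The last 2 ratios overlapped between group A and group B and were lower in group A than in group C, and 1-month-old replicate 2 was lowest in both.

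The keratins were also set against 12 pan-epithelial genes, among them EPCAM and CDH1, adhesion molecules of epithelial cells. Their summed level was 739, 340 and 558 CPM in group A, 1743 to 1931 CPM in group B and 1880 to 2245 CPM in group C. In 1-month-old replicate 2 CDH1 alone made up 64.0% of that sum, against 19.3% to 29.7% in the other libraries, and EPCAM made up 2.04%, so the reference is not the same mixture there. Relative to this sum KRT8 was at 31.9% and 28.4% in 1-month-old replicates 1 and 3, 21.6% to 27.5% at 12 months and 22.6% to 40.0% at 24 months. KRT7 was at 9.72% and 9.61% in those replicates, 7.32% to 10.7% at 12 months and 6.74% to 13.3% at 24 months. The luminal keratins of these replicates thus lay within or near the range of the older libraries once set against epithelial genes. Replicate 2 did not: its KRT8 (90.5%) and KRT19 (36.2%) were above every older library and its KRT7 (2.76%) was below every one. Its KRT18 was at 20.3%, beside 10.0% to 20.2% in the older libraries. KRT5 was at 6.96% and 8.02% in 1-month-old replicates 1 and 3, 2.02% to 2.72% at 12 months and 3.20% to 3.36% at 24 months. KRT17 was at 8.03% and 7.65%, then 2.17% to 2.65% and 2.56% to 3.99%, and KRT14 at 1.43% and 1.94%, then 0.31% to 0.62% and 0.42% to 0.61%. For KRT5, KRT14 and KRT17 each 1-month-old library was above each older one on this measure, replicate 2 included.

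In a fit scaled to these genes and without 1-month-old replicate 2, the luminal differences from 1 to 12 months were -0.43 to 0.22 on the log2 scale, and those from 1 to 24 months -0.32 to 0.63, with all 8 intervals including 0. KRT5, KRT14 and KRT17 were lower by estimates of -1.63, -1.88 and -1.67 at 12 months and -1.19, -1.64 and -1.22 at 24 months. Their adjusted p-values were under 0.05 in edgeR in both comparisons and none passed the fold limit. That threshold was passed by 79% and 69.2% of all genes in this fit, whose median gene moved by -1.54 and -1.72. The estimates of these 3 keratins were thus somewhat lower than the median gene at 12 months and less low than it at 24 months. Their difference from the median gene was not tested. KRT15 differed by 0.36 and 0.51, with intervals that include 0. With all libraries the scaled fit called KRT5, KRT14 and KRT17 lower in both comparisons, as were 47.9% and 54.2% of all genes.

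**Figure D4:**
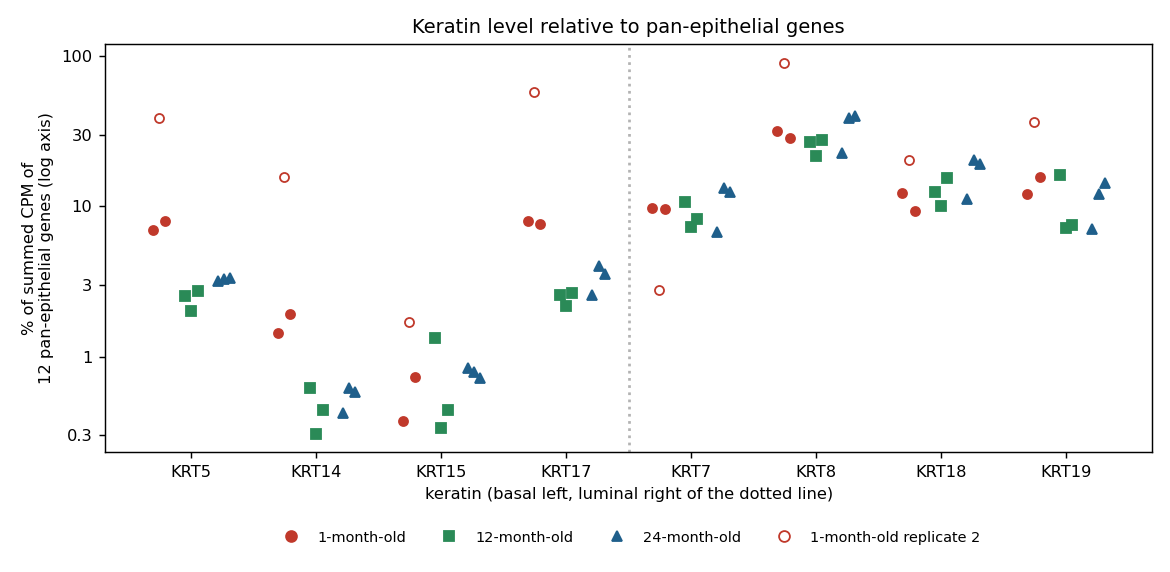
Level of each keratin as a percentage of the summed CPM of 12 pan-epithelial genes, per library, on a log axis, with ages as colours and shapes and 1-month-old replicate 2 open. KRT5, KRT14 and KRT17 are higher in each 1-month-old library than in each older one, and the luminal keratins of 1-month-old replicates 1 and 3 fall within or near the older range. Replicate 2 lies above that range for KRT8 and KRT19 and below it for KRT7.

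Of the 8 genes, KRT8, KRT14, KRT18 and KRT19 were each measured as 1 RefSeq transcript. KRT18, as XM_005680092.3, was the only member transcript with an adjusted p under 0.05 in any comparison (12 against 1 month, log2 fold change 1.75, edgeR adjusted p = 0.049), and no member transcript was called, against 2.74% of all transcripts between 1 and 12 months, 1.5% between 1 and 24 months and 0% between 12 and 24 months. KRT15 had 3 RefSeq transcripts whose shares moved with age. XM_018065052.1 made up 77.0% of the mean level at 1 month, 61.0% at 12 months and 39.5% at 24 months, and XM_018065053.1 22.2%, 30.4% and 54.1%. The second was at 0.41, 1.15 and 1.22 CPM in group A, at 7.12, 2.31 and 2.31 CPM in group B and at 6.33, 9.47 and 10.0 CPM in group C, with group A below every older library. Its change from 1 to 24 months, 3.32 on the log2 scale, had an edgeR adjusted p of 0.073. Most of KRT5 was assigned to 2 transcripts assembled by the authors, and its RefSeq transcript held 3.86% to 11.01% of its mean level. Most of KRT17 was also on 2 such transcripts, and its RefSeq transcript held 13.6% to 22.7%. From RefSeq transcripts alone KRT17 differed by -1.86 between 12 and 1 months, against -1.11 for the summed gene. KRT7 had 1 such transcript, at 0, 3.11 and 5.55 CPM in group A and 0 CPM in every older library. Taken from RefSeq transcripts alone, KRT5 differed by 0.91 between 24 and 1 months, opposite in sign to the summed gene and not called. Keratins of a type share long stretches of sequence, so reads of KRT5, KRT14 and KRT17 may have been split with relatives such as KRT6A, KRT6B and KRT16.

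The table held 37 other genes with a KRT symbol. Above 3 counts (with a tolerance of 0.05 counts) were 25 of them in 1-month-old replicate 2, 15 in each of replicates 1 and 3, and 7 to 10 in the older libraries. KRT1, a keratin of cornifying skin layers, was at 1.999, 10.1 and 1.56 CPM in group A and had no count in any older library. KRT6A was at 1.33, 10.9 and 0 CPM and KRT6B at 1.48, 11.8 and 3.02 CPM in group A, and KRT6A had no count in any older library, while KRT6B reached at most 0.62 CPM there. Like KRT5, KRT14 and KRT17, these keratins were highest in 1-month-old replicate 2. KRT80, a type II keratin, was at 6.92, 0.92 and 5.79 CPM in group A, 17.4 to 24.1 CPM in group B and 28.0 to 45.3 CPM in group C, and was called higher at 24 months (edgeR adjusted p = 0.0220). KRT78 was at 0.53 to 1.37 CPM in group A and 2.05 to 6.17 CPM in the older libraries, and was called higher at 12 months (edgeR adjusted p = 0.0490) and at 24 months. KRT23, a type I keratin, was at 10.9, 0.14 and 10.3 CPM in group A and 25.8 to 41.1 CPM in the older libraries, so that it shared with KRT7 and KRT80 the lowest level in 1-month-old replicate 2. The 29 keratins listed as squamous and skin keratins were a mixed set, which also held KRT23. Of them, 10 were tested between 1 and 12 months with 1 called higher and 1 lower, and 9 between 1 and 24 months with 2 called higher and 2 lower.

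Desmosomes anchor keratin filaments between cells. Of 15 desmosome and plakin genes none was called higher and 1, DSG3, was called lower at 12 and at 24 months. DSG3, a cadherin of stratified epithelia and basal cells, was at 13.4, 13.7 and 6.23 CPM in group A and 0.40 to 2.44 CPM in the older libraries, a log2 fold change of -3.24 at 12 months (edgeR adjusted p = 0.0231). DSP, the plakin that binds the filaments, was at 254, 194 and 150 CPM in group A and 441 to 718 CPM in the older libraries. The median log2 fold change of the list was 1.23 at 12 months and 1.47 at 24 months, beside 1.39 and 2.05 for the luminal keratins. Hemidesmosomes anchor KRT5 and KRT14 filaments to the basement membrane: none of 10 genes was called, with medians of 0.27 and 0.32. DST, a plakin of hemidesmosomes though not the only one in the list, was at 292 to 643 CPM in group A and 349 to 556 CPM in the older libraries.

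Of the 12 pan-epithelial genes, 1 was called higher at 12 months and 5 at 24 months, against 2.16% and 4.25% of all genes, with medians of 1.82 and 2.33. CLDN7, a claudin of lateral membranes, was at 15.6, 1.94 and 11.5 CPM in group A, 39.8 to 62.4 CPM in group B and 53.6 to 150 CPM in group C. Without 1-month-old replicate 2 none and 6 of the 12 were called higher, against 2.13% and 4.38% of all genes, with medians of 1.41 and 1.94. Of 11 duct genes none was called at 12 months and 1, SCNN1G, a subunit of the duct sodium channel, was called higher at 24 months. Without that replicate 1 and 3 were called higher. The duct list summed to 360, 21.9 and 242 CPM in group A and to 676 to 1184 CPM in the older libraries.

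Genes that go with the basal keratins gave mixed results. Of 8 basal cell genes, S100A2 was called higher at both ages, at 4.05 to 6.81 CPM in group A and 12.6 to 28.8 CPM in the older libraries, and AQP3 was called lower at 24 months. Without 1-month-old replicate 2 none of the 8 was called at 12 months and 1 was called higher at 24 months, none lower. The list's medians were 0.00 and 0.04 with all libraries. TP63, the transcription factor of basal cells, was at 44.3, 45.2 and 22.2 CPM in group A, 26.1 to 32.7 CPM in group B and 14.7 to 23.7 CPM in group C and was not called. Of 8 myoepithelial and smooth muscle genes none was called, and their sum was 814, 94.8 and 740 CPM in group A and 1013 to 1511 CPM in the older libraries. The sum of this list, which does not separate myoepithelial from smooth muscle cells, was lowest in 1-month-old replicate 2. KRT5, KRT14 and KRT17 were highest in that library. MYH11, a smooth muscle myosin, was at 170, 7.12 and 164 CPM in group A.

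Of the other intermediate filament genes, 13 were tested at each age. With all libraries 3 were called lower at 12 months and 2 at 24 months, none higher. Without 1-month-old replicate 2, 2 of 13 were called lower at 12 months. At 24 months 2 of 14 were then called lower and 1 was called higher. BFSP2, a filament gene known from the lens, was at 2.44 to 9.76 CPM in group A and at most 0.31 CPM in the older libraries. VIM, the filament of connective tissue cells, was at 343 to 739 CPM in group A and 201 to 552 CPM in the older libraries. Of 9 acinar genes 4 and 3 were called higher at 12 and 24 months, led by LPO, the peroxidase of saliva, and without 1-month-old replicate 2 the counts were 5 and 7. All 14 thymocyte genes were called lower at both ages, as were 7 of 11 thymic epithelium genes, while CLDN3, also in that list, was called higher at 24 months. Without 1-month-old replicate 2 the thymocyte count stayed at 14 and 6 thymic epithelium genes were called lower at both ages and 2 higher at 24 months. Of 8 skeletal muscle genes 2 were called lower at 24 months, or 3 of 9 without that replicate, and of the squamous epithelium genes only LYPD3 was tested against 1 month with all libraries, called higher at 24 months. Without 1-month-old replicate 2, 2 squamous epithelium genes were tested and 1 was called higher at each age. In the comparison of 12 with 24 months no gene of the 13 lists was called.

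Across the 9 libraries the keratins with the most similar course were KRT5 and KRT17, whose centred log2(CPM + 1) values differed by 0.23 (root mean square), then KRT14 and KRT17 (0.29), KRT8 and KRT19 (0.36) and KRT8 and KRT18 (0.38). Such differences are smaller for genes that vary little, and KRT5 and KRT17 varied by 0.49 and 0.66 about their means. KRT15, grouped here as basal, was nearest among the members to the luminal KRT19 (0.44) and KRT8 (0.56). It differed from KRT5, KRT17 and KRT14 by 0.98, 1.13 and 1.25. These values share the 3 ages, and 1-month-old replicate 2 stood apart in several of the genes. Among 12883 named genes the nearest to KRT7 were EPN3 (0.17), ELF3 (0.18) and FOXQ1 (0.21), where KRT7 itself varied by 1.39 about its mean. The nearest to KRT18 were ARFIP2, MKS1 and AGFG2 (0.15 to 0.17), and to KRT8 YIPF3, LIMK2 and SYT5 (0.11 to 0.15). KRT19 was followed by CRTAC1, L1CAM and TMEM184B (0.23 to 0.27) and KRT15 by EDEM2 (0.37) and L1CAM (0.40). For KRT5 they were MCAT, REXO4 and SH3BP5L (0.11 to 0.12), for KRT17 MAF1, SNAPC2 and CD2BP2 (0.13) and for KRT14 PPM1G, GATAD2A and PTBP1 (0.17).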

How the data were processed

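The authors removed ribosomal reads, aligned the rest to the goat genome, assembled transcripts and deposited RSEM expected counts per transcript (Bowtie2 2.2.8, TopHat2 2.1.1 and Cufflinks, per the submitters' processing notes; the build is not given in the sources used here). The deposited expected counts turned out to be scaled: in each library low values of single-transcript genes were multiples of 1 step (0.439 to 1.17, within 0.005), for 83.2% to 86.5% of them against 0.857% to 2.28% by spacing alone. Tests used the counts as deposited, and counts divided by the step are an alternative added after seeing the data, so counting precision follows the unscaled totals.

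Transcripts were summed to genes and rounded. Each pair of ages was fitted with its 6 libraries in edgeR 4.0.16 (R 4.3.3): filterByExpr, TMM, glmQLFit and glmQLFTest, Benjamini-Hochberg adjustment over all genes, and the study's limits without its FPKM limit. Standard errors follow from the F statistic. P-values set the difference between ages against the spread between libraries of an age, which in group A includes replicate 2. Simulated data for the comparison of 12 with 24 months (14288 genes, 200 changed) gave 186 calls, 179 of them changed genes. The keratin estimates of that comparison, 0.34 to 0.66, lay under the fold limit, where no call is made. Recovery in the comparisons with 1 month was not tested. Of 42686 known identifiers 42652 matched the RefSeq table of the ARS1.2 assembly, used for names only. The 6 list genes KRT6C, KRT13, SMR3A, BPIFA2, SPRR3 and CALML5 were not found. Alternatives were other scalings (DESeq2 1.42.0 size factors, upper quartile, total counts, pan-epithelial genes), no filter, DESeq2, edgeR's exact test, 9 libraries in 1 fit, a replicate block, RefSeq transcripts only, and leaving out each library. Permutation tests used scipy 1.17.1.

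The members and the 13 other lists were chosen with earlier results of these data known. Named were the 8 keratins, the called list gene with the largest rise and fall per comparison (or, with none called, the most abundant), and the 3 genes nearest to each keratin (mean CPM of at least 1), of which 1 for KRT15 is not reported here. EPCAM, CDH1, AQP5, TP63, KRT6A, KRT6B, KRT23 and genes at or under 3 counts were named after their values were seen.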

Additional observations from a re-analysis of the deposited data

How the results depend on the processing

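Over 424 values (24 keratin fold changes under their alternatives), 369 kept direction and side of the threshold, 31 lost a call, 6 gained one and 18 changed sign. All the lost calls were those of KRT7, KRT15 and KRT18 at 24 against 1 month. These calls held in 4, 6 and 12 of 18 alternatives each. The cause of these shifts was not tested. With TMM scaling the median gene moved by -0.02 (12 minus 1 month) and -0.01 (24 minus 1 month) on the log2 scale, while total counts moved it by -0.51 and -0.71 and pan-epithelial scaling by -1.97 and -2.17. The lower share of all calls went from 81.5% and 68.3% to 95.1% and 93.7% with total counts, to 99.2% and 99.1% with pan-epithelial genes.

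From 1 to 12 months, pan-epithelial scaling called 3 keratins and the adjusted p alone 1. An adjusted p under 0.05 was reached by 3 under pan-epithelial scaling (also 3 without 1-month-old replicate 2), 3 with DESeq2's Wald test, 3 with edgeR's exact test, and 0 to 3 when 1 library was left out. Among all genes it was reached by 10833 of 14883 under pan-epithelial scaling and 12030 of 15234 without that replicate. The Wald test gave 4798 of 18636 genes, the exact test 4162 of 14883, and leaving out 1 library 0 to 6589. Pan-epithelial scaling turned KRT15 to -0.40, KRT8 to -0.99, KRT18 to -0.15 and KRT19 to -1.05, and without 1-month-old replicate 2 it turned KRT7 to -0.14, KRT8 to -0.26 and KRT19 to -0.43. All genes called, 1739, were 7181 under that scaling and 4866 without that replicate, and 0, 75 and 125 without 12-month-old replicates 1, 2 and 3.

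From 1 to 24 months, 1 keratin was called with DESeq2 size factors, upper-quartile normalization or RefSeq transcripts alone, 0 with total counts, 0 with pan-epithelial scaling without 1-month-old replicate 2, and 0 to 2 when 1 library was left out. An adjusted p under 0.05 was reached by 5 with DESeq2's Wald test and by 0 to 5 when 1 library was left out. Among all genes it was reached by 4137 of 18569 with the Wald test and by 309 to 4295 when 1 library was left out. Pan-epithelial scaling turned KRT15 to -0.24, KRT8 to -0.58 and KRT19 to -0.94 (-0.32 without that replicate). RefSeq transcripts turned KRT5 to 0.91. Leaving out 1 library gave -0.36 to 0.58 for KRT5 (0.02 without 24-month-old replicate 1), -1.44 to 0.16 for KRT14 and -0.80 to 0.54 for KRT17. All genes called, 2006, were 8184 under pan-epithelial scaling, 6187 under it without 1-month-old replicate 2, and 1514 with RefSeq transcripts alone. They were 309 and 555 without 24-month-old replicates 3 and 2. The basal minus luminal balance, lower than at 1 month by 1.76 at 12 months and 1.69 at 24 months, kept its direction under each alternative run, and without 1-month-old replicate 2 was lower by 1.12 and 1.05.

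From 12 to 24 months no alternative called a keratin. Leaving out 1 library gave 0 to 5 keratins, and 0 to 4612 of all genes, with an adjusted p under 0.05. It turned KRT19 over a range of -0.016 to 0.78. Without 24-month-old replicate 1 all genes called were 171.

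The replicate numbers did not pair the goats: deviations from the group mean of same-numbered libraries correlated at -0.23 to 0.42, without every pair over 0.1. With the replicate block 0 keratins were called at 12 months (0 with an adjusted p under 0.05), 2 at 24 months against 1 month and 0 at 24 against 12 months, KRT5 turned to 0.12 at 24 months, and all genes called were 896, 1801 and 7. At these depths, a level listed at 0 allows up to 3 counts, or 0.0835 to 0.175 CPM on the TMM scale, and 3 goats per age limit every interval.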
